A study of Mus musculus with 6 samples.

Results

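Potassium channel genes were followed in islets of control and mutant mice that differ in their alleles of Nkx6-1, a homeodomain transcription factor of beta cells. The members were all gene names on the array that start with Kcn, the prefix of potassium channel subunits, together with Abcc8 and Abcc9, the sulfonylurea receptors that complete ATP-sensitive channels. They numbered 97 of the 31829 gene names on the array and were read by 139 of 39429 probes. Of these, 74 genes (99 probes) were tested, because the scanner software had called a probe well above background on all 3 arrays of at least 1 group, as for 22775 gene names in all.

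Beta cells set their membrane potential through potassium channels. Glucose metabolism closes ATP-sensitive (KATP) channels, built of Kcnj11 and Abcc8, which depolarises the cell and opens calcium channels that trigger insulin release, while voltage-gated and calcium-activated potassium channels end each action potential and two-pore channels carry a background current. Each pore is an assembly of several alpha subunits, whose trafficking and gating are tuned by silent and auxiliary subunits.

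Control islets were Nkx6.1fl/+;Pdx1-CreERTM and mutant islets Nkx6.1fl/-;Pdx1-CreERTM. The strain was mixed, the Nkx6.1-flox line being FVB/N x C57Bl/6J and the Pdx1-CreERTM line Cd1 X C57Bl/6J. Both groups carried the floxed allele and the tamoxifen-activated recombinase, both were male and 6 weeks old, and both were injected 4 times with tamoxifen at 2 mg per 25 g of body weight from 4 weeks of age. Controls kept a wild-type allele, whereas mutants had lacked the second allele since before tamoxifen, so the inherited and the induced loss cannot be told apart. The Pdx1 promoter drives the recombinase in Pdx1-expressing cells, and whole islets hold other cell types too. Each of the 3 samples of a group, lettered A to C, pooled RNA from the islets of 2 pancreata, and p-values measure the spread between these pools. In such bulk samples, fewer cells of a type and less RNA per cell cannot be told apart.

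The arrays were single-colour Agilent arrays, and 3 per group limit the precision of every value. Probes well above background made up 73.4% to 76.3% of all probes on control arrays and 63.9% to 74.4% on mutant arrays, with mutants A and B lowest. The members' 139 probes followed the same order, with 99, 102 and 103 above background in controls (A, B, C) and 91, 85 and 102 in mutants (A, B, C). Mutant A was the array that the scanner software marked for evaluation. Slide 1 held control A with mutants B and C, and slide 2 held controls B and C with mutant A. The single Nkx6-1 probe, whose place relative to the floxed part is not given in the sources used here, read 4.79, 4.85 and 4.64 on control arrays and 4.32, 4.06 and 4.45 on mutant arrays, on the log2 scale relative to each array's 75th percentile that is used throughout (difference -0.48, limma adjusted p = 0.131). All 8 beta cell, 5 alpha cell, 2 delta cell and 1 PP cell markers were above background on every array. So were all 17 acinar, 10 endothelial and mural and 5 mesenchyme markers, and detection alone does not establish islet identity. Summed marker levels in controls and mutants ranged from 678 to 957 and 619 to 1030 for beta cells, 307 to 450 and 319 to 582 for alpha cells, 183 to 306 and 250 to 368 for delta cells, and 246 to 336 and 236 to 309 for PP cells, on a linear scale where 1 is the array's 75th percentile. The beta cell sum is mostly Ins1, Ins2 and Iapp. In log2 units the control means of Ins1, Ins2, Gcg, Sst and Ppy lay close together, from 7.78 for Ins2 to 8.13 for Ppy. Saturation of these bright probes was not tested, which limits what the endocrine sums say of cell composition. By gene, 2 of the 8 beta cell markers were called lower, Ucn3 (-1.24, adjusted p = 0.0236) and Slc2a2 (-2.01, adjusted p = 0.0415), Mafa and G6pc2 differed by -0.77 and -0.81 without overlap and were not called, and the list's median was -0.58. The non-endocrine sums were 1390 to 1900 and 933 to 4610 for 17 acinar markers, 6.47 to 7.06 and 6.06 to 7.77 for duct, 29.1 to 36 and 33.1 to 33.6 for endothelial and mural cells, 1.39 to 1.66 and 1.57 to 1.86 for Schwann cells and nerve, and 1.99 to 7.15 and 4.56 to 5.57 for mesenchyme. Within the duct list the genes diverged. Cftr differed by 3.12 without overlap and was not called (limma adjusted p = 0.0831), and it was above background on 2 of 3 control arrays. Krt7 differed by 0.18, also without overlap, while Krt19 (-1.10), Sox9 (-0.35) and Spp1 (-0.069) overlapped. Leukocyte and macrophage markers were the only list whose sums did not overlap, at 32.2 to 35.3 in controls and 20.7 to 26.8 in mutants. That sum is carried by the bright probes of Itgam (-0.49) and Cd3e (-0.55), while Ptprc (0.17) and Csf1r (-0.061) overlapped, and no leukocyte marker was called. No list had a marker that was above background on no array. The part of other cell types in the results that follow was not tested.

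Potassium channel genes were called in both directions, and the calls came from 5 of the channel families. A gene was called at a limma adjusted p under 0.05 over all 22775 genes. Of the 74 tested members 6 were called (8.11%), against 2.53% of all genes tested. Higher in mutants were Kcnj13, Kcnmb4, Kcnc2, Kcnq1 and Kcnh3, by 1.57-fold to 10.6-fold, and lower was Kcnj12, by 3.59-fold. The 5 higher calls stand beside a background of 1.41% and the single lower one beside 1.12%. All 6 were above background on all 6 arrays.

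Beyond the calls, the mutant and control arrays of 31 members (41.9%) did not overlap, 17 with mutants above controls and 14 below. Over all genes this share was 26.3%, with 12.3% above and 14% below. A difference of 2-fold or more was measured in 13 members (17.6%), against 4.82% of all genes. The members' median log2 difference was 0.12, and that of all genes -0.025. The members' value was 0.0036 within slide 1, 0.021 within slide 2 and 0.00072 to 0.11 with 1 array left out (lowest without control A), so its size rested on the arrays used. In size alone, the median was 0.38 for members and 0.22 for all genes. The members were also dimmer, with a median level of -2.65 against -1.28 for all genes, and more variable within a group, with a median SD of 0.26 against 0.21. The part of signal level in the larger differences was not tested. Within slides, 55 of the 74 members had the same sign in both, and the share of all genes that did was not counted. The 6 called members are among them by necessity, because groups without overlap must have the same sign in both slides. With slide as a block in the fit 5 members were called, all but Kcnh3, against 2.94% of all genes.

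**Figure D1:**
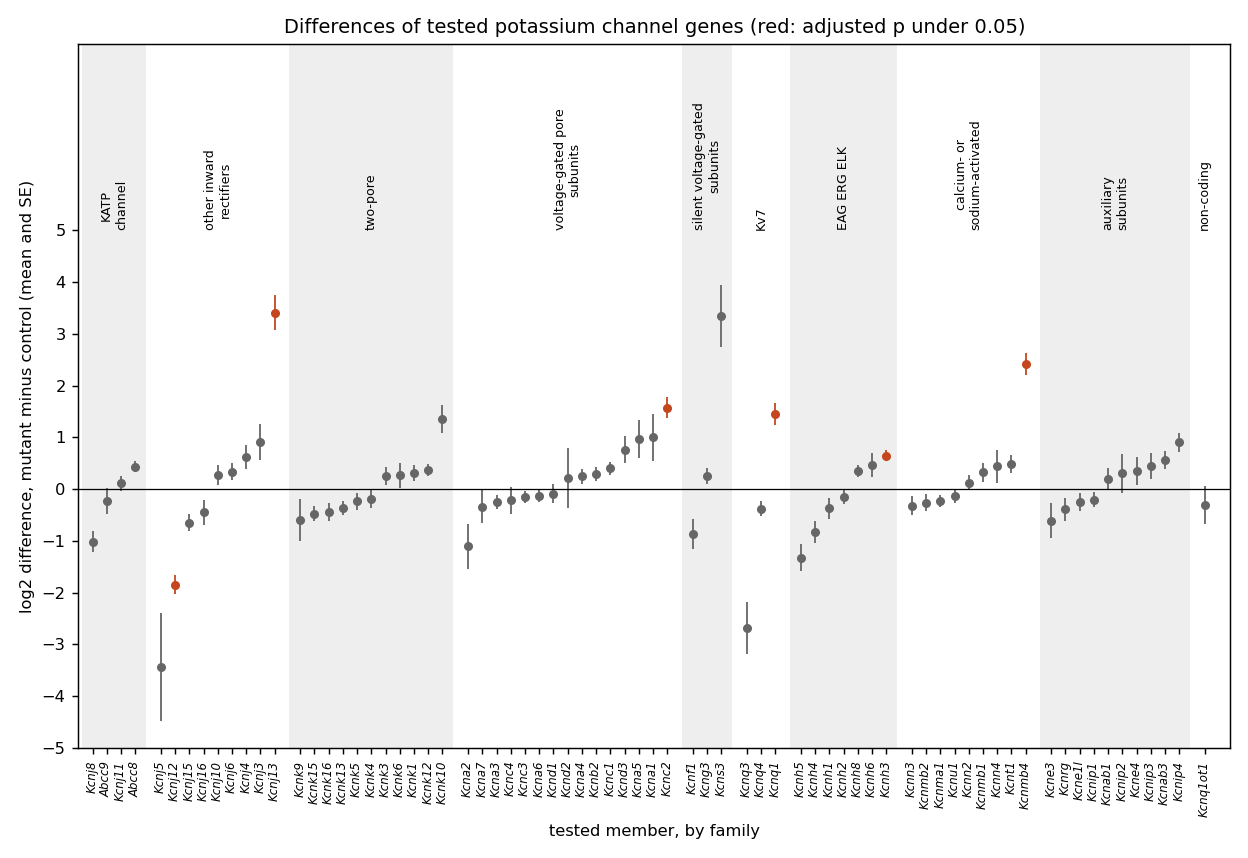
Log2 difference (mutant minus control) of tested potassium channel genes, as points with the standard error of the fit, grouped by channel family along the x axis. The 6 genes in red passed an adjusted p under 0.05, and Kcnj5, Kcnq3 and Kcns3 are grey points far from 0 with wide errors.

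Among the KATP channel genes none of the 4 was called. Abcc8, the sulfonylurea receptor SUR1 of the beta cell channel, read 7.10, 6.93 and 7.09 in controls (A, B, C) and 7.34, 7.55 and 7.53 in mutants (A, B, C). All mutant arrays lay above all control arrays, by 0.43 on average (SE 0.11, limma adjusted p = 0.106), and a second, overlapping Abcc8 probe differed by 0.29. Kcnj11, which encodes its pore Kir6.2 and lies beside Abcc8 on chromosome 7, read 0.57, 0.35 and 0.57 in controls and 0.81, 0.61 and 0.41 in mutants. These ranges overlapped, and the difference of 0.11 (SE 0.14, adjusted p = 0.685) took opposite signs in the slides, at -0.062 and 0.35.

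The other pair of KATP genes, known from vascular smooth muscle, was dim. Kcnj8, the pore Kir6.1, was above background on all 3 control arrays at -6.19, -6.17 and -5.92 and on no mutant array, where it read -7.15, -6.73 and -7.44. The bound that this allows is at least 1.12-fold lower in mutants, taking for each mutant array the higher of the probe's own signal and that array's dimmest signal above background (limma adjusted p = 0.0645). Normexp background correction, which draws dim signals together, brought the measured difference from -1.02 to -0.11. Abcc9, the receptor SUR2, differed by -0.23 (SE 0.25, adjusted p = 0.639) with overlapping arrays. The endothelial and mural sum given above is mostly the endothelial genes Kdr, Plvap and Egfl7. The mural markers Rgs5, Pdgfrb, Acta2 and Myh11 differed by -0.087, 0.18, 0.17 and -0.019, each with overlapping arrays.

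**Figure D2:**
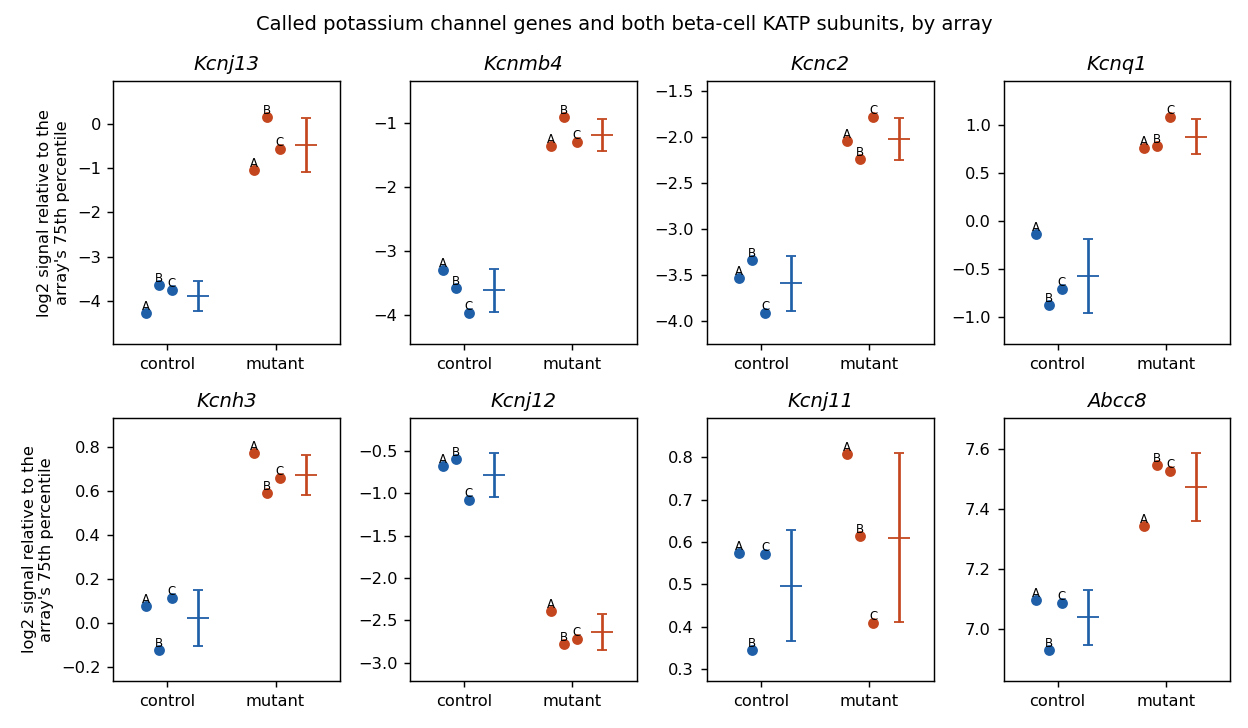
Level of the 6 called potassium channel genes and of Kcnj11 and Abcc8 on each array (y axes, log2 signal relative to the array's 75th percentile, a separate range per gene), with array letters beside the points and bars for the mean and SD of 3 arrays. The groups are apart in the called genes and in Abcc8, and they overlap in Kcnj11.

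The other inward rectifiers held the most extreme called member in each direction. Kcnj13 encodes Kir7.1, a channel of small conductance known from transporting epithelia such as the retinal pigment epithelium and choroid plexus, and Kcnj12 encodes Kir2.2, a strong rectifier known from heart and skeletal muscle. Kcnj13 is read by a pair of 60-base probes whose starts lie 132 bases apart, at 89282859 to 89282918 of chromosome 1 for the brighter one and at 89282991 to 89283050 for the other (mm9, minus strand). Their first 30 bases are shown because the rise was read by both, which do not overlap.
Kcnj13 brighter probe: tgtatctcatgtttccttgttctcagtgct
Kcnj13 second probe: catatcaatggacaaagcattgacaatttc
The brighter probe read -4.28, -3.64 and -3.76 in controls (A, B, C) and -1.05, 0.17 and -0.56 in mutants (A, B, C). Every mutant array was thus far above every control array, and mutant B was highest. Kcnj13 rose 10.6-fold, a log2 difference of 3.41 (SE 0.34, limma adjusted p = 0.016). The second probe read -4.71, -4.12 and -4.10 in controls and -0.74, 0.46 and -0.36 in mutants, again with control A lowest and mutant B highest of all arrays, and rose by 4.10 (adjusted p = 0.0101 among all probes). Within slide 1 the brighter probe differed by 4.08 and within slide 2 by 2.65, and a fit with slide as a block gave an adjusted p of 0.0334. The adjusted p of the gene was 0.0246 to 0.0775 when 1 array was left out, and it was over 0.05 without control B (0.0722), control C (0.0775) or mutant B (0.0505). In the fit without control B the second probe was the brighter and stood for the gene.

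Kcnj12 read -0.68, -0.60 and -1.08 in controls (A, B, C) and -2.39, -2.78 and -2.72 in mutants (A, B, C). All mutant arrays lay over 1 log2 unit below the lowest control array. Kcnj12 fell by 1.85 on the log2 scale (SE 0.18, 3.59-fold, limma adjusted p = 0.0151), with -2.07 within slide 1, -1.55 within slide 2 and 0.0293 as the adjusted p under the slide block. It was not called without control B (adjusted p = 0.0766), control C (0.0513) or mutant B (0.0812). Its probe lies at 60884556 to 60884615 of chromosome 11 (mm9).

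No other of the 9 tested inward rectifiers outside the KATP family was called. Kcnj5, the G protein-gated subunit Kir3.4 and named after its values were seen, had a difference larger in size than that of Kcnj13, at -3.44, but its control arrays read -3.64, 0.33 and -1.84 and its mutant arrays -5.47, -4.03 and -5.94. The mutant arrays were all lower, the control SD was 1.99, and the adjusted p was 0.147. Its relatives Kcnj3 and Kcnj6, other subunits of G protein-gated channels, differed by 0.91 and 0.34 (adjusted p = 0.225 and 0.312). Kcnj15 differed by -0.65 with non-overlapping arrays (adjusted p = 0.0984). In the family 5 differences lay above 0 and 4 below, and 5 members (55.6%) had arrays without overlap, against 26.3% of all genes.

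Of the two-pore genes, whose channels pass a leak current, none of 11 was called. Kcnk16 encodes TALK1, known as an abundant two-pore channel of beta cells. It read 1.00, 0.80 and 0.95 in controls and 0.82, 0.30 and 0.29 in mutants, where mutant A lay within the control range (difference -0.45, SE 0.17, limma adjusted p = 0.228). Kcnk3, the acid-sensitive channel TASK1, differed by 0.26 (adjusted p = 0.449). The family's smallest p belonged to Kcnk10, the mechanosensitive channel TREK2, at -4.33, -4.92 and -5.30 in controls and -3.23, -3.53 and -3.73 in mutants. These ranges did not overlap, and the difference was 1.35 (SE 0.27, adjusted p = 0.0661). It was called without control A (adjusted p = 0.0458). Kcnk15, a two-pore subunit of the TASK group, followed with -0.47 and non-overlapping arrays (adjusted p = 0.137). The 11 differences ran from -0.60 to 1.35, with 5 above 0 and 6 below. Arrays did not overlap in 4 (36.4%), against 26.3% of all genes.

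Voltage-gated pore subunits gave 1 call among 16. Kcnc2 encodes Kv3.2, a delayed rectifier that opens at depolarised potentials and closes fast, best known from fast-spiking neurons. It read -3.54, -3.34 and -3.92 in controls (A, B, C) and -2.04, -2.24 and -1.78 in mutants (A, B, C), with no overlap. Kcnc2 rose 2.98-fold (log2 difference 1.58, SE 0.20, limma adjusted p = 0.0249), with 1.53 and 1.58 within slides 1 and 2 and 0.043 as the adjusted p under the slide block. In the 6 fits with 1 array left out its adjusted p was 0.0544 to 0.0965, over 0.05 each time and highest without control C, while the difference ranged from 1.42 to 1.71. Its probe lies at 111902778 to 111902837 of chromosome 10 (mm9, plus strand). Its relative Kcnc1 (Kv3.1) differed by 0.40 (SE 0.12, adjusted p = 0.152), also without overlap, and a second, dimmer probe of it by 1.10 (adjusted p = 0.0779 among all probes).

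Kcnb2, a delayed rectifier known from islet cells, differed by 0.29 (adjusted p = 0.305). Kcnd3, the A-type channel Kv4.3, read -3.33, -3.28 and -3.24 in controls and -2.58, -3.01 and -1.97 in mutants. All mutants were above the controls, the SD was 0.53 among mutants and 0.046 among controls, and the adjusted p was 0.187. Over the family the differences ran from -1.10 to 1.58, with 9 members above 0 and 7 below. The 5 without overlap (31.2%) were near the 26.3% of all genes.

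The silent subunits do not form channels alone but assemble with other voltage-gated subunits and change their gating. Only 3 of the 10 on the array were tested, and none was called. Kcns3 (Kv9.3) read -4.91, -7.35 and -6.04 on control arrays, where controls A and C were above background and B was not, and -3.00, -2.39 and -2.90 on mutant arrays, all above background. The groups were apart by 3.34 (SE 0.60), and with a control SD of 1.22 the adjusted p of 0.0523 lay just outside the threshold. Under normexp correction the difference was 1.86 and passed, as did those in the authors' equalized values, with a variance trend and without control A (adjusted p = 0.0382).

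Kcnf1 (Kv5.1) was the member whose probes disagreed most in size. Both 60-base probes lie on the minus strand, at 17181507 to 17181566 of chromosome 12 for the brighter and at 17179527 to 17179586 for the dimmer one (mm9), with starts 1980 bases apart. The first 30 bases of each identify the stretch of transcript read.
Kcnf1 brighter probe: ttcattcccctgctgacagaggagaagcat
Kcnf1 dimmer probe: atactcagagatccaaagtatctttttgct
The brighter probe, which stands for the gene, read -1.77, -2.28 and -2.57 in controls and -3.47, -2.63 and -3.12 in mutants, a difference of -0.87 that was not called (SE 0.29, limma adjusted p = 0.175). The dimmer probe read -3.43, -2.33 and -3.16 in controls and -5.70, -5.81 and -5.88 in mutants. All of its mutant arrays were over 2 log2 units below the lowest control array, and it fell by 2.82 (SE 0.29, adjusted p = 0.0142 among all probes). It was above background on 2 of 3 mutant arrays. The mean of both probes fell by 1.84 (limma adjusted p = 0.0158).

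Of the Kv7 genes, slow channels that open near rest, Kcnq1 was called among 4 tested. Kcnq1 encodes Kv7.1, a delayed rectifier of heart and epithelia, and human variants at its locus are associated with type 2 diabetes. It read -0.14, -0.88 and -0.71 in controls (A, B, C) and 0.75, 0.78 and 1.08 in mutants (A, B, C), with every mutant above every control. Kcnq1 rose 2.73-fold (log2 difference 1.45, SE 0.22, limma adjusted p = 0.037), by 1.08 within slide 1 and 1.55 within slide 2, and the slide block left the adjusted p at 0.0359. The call ended without a filter on dim probes (adjusted p = 0.0559). It was called without control A (0.0334) and not without any of the other 5 arrays (adjusted p = 0.0694 without mutant A to 0.157 without control C). Its probe lies at 150612887 to 150612946 of chromosome 7 (mm9, plus strand). Kcnq1ot1, a long non-coding RNA transcribed antisense within Kcnq1 and no channel gene, averaged -1.58 ± 0.15 over the 3 controls and -1.89 ± 0.75 over the 3 mutants (both SD). Its arrays overlapped, with mutant A highest and mutant B lowest of all 6 (difference -0.31, adjusted p = 0.665).

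Kcnq3 (Kv7.3), a subunit of the neuronal M channel, was above background on all control arrays at -6.50, -4.73 and -4.68 and on no mutant array, where it read -8.01, -7.86 and -8.08. The bound is at least 1.94-fold lower in mutants, with an adjusted p of 0.056. Under normexp correction the difference shrank from -2.68 to -0.57, and it passed with quantile scaling, with a variance trend and without control A, the lowest control (adjusted p = 0.00867). Kcnq3 and Kcnj8 were the members above background on every control and on no mutant array. Mutants A and B had the fewest probes above background of all 6 arrays. Mutant C, with 74.4% of probes above background, lay within the range of the control arrays. The part of detection in these absences was not tested.

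Among the EAG, ERG and ELK genes, voltage-gated channels with a cyclic nucleotide-binding-like domain, Kcnh3 was called of 7 tested. Kcnh3 encodes Kv12.2, an ELK channel of forebrain neurons. It read 0.078, -0.12 and 0.11 in controls (A, B, C) and 0.77, 0.59 and 0.66 in mutants (A, B, C). The groups did not overlap, and Kcnh3 rose 1.57-fold (log2 difference 0.65, SE 0.11, limma adjusted p = 0.0489). This call ended with slide as a block (adjusted p = 0.0623), with quantile or median scaling, without a filter on dim probes, and with each array left out in turn (adjusted p = 0.073 to 0.188, lowest without control A and highest without control B). Just outside the threshold stood Kcnh5, the EAG channel Kv10.2, at -3.35, -2.56 and -3.42 in controls and -4.64, -4.29 and -4.38 in mutants (difference -1.32, SE 0.26, adjusted p = 0.061), and it passed in a fit of the genes above background on all 6 arrays (adjusted p = 0.0477). Of the ERG channels, known to repolarise beta cells, Kcnh2 (ERG1) differed by -0.15 (adjusted p = 0.552) and Kcnh6 (ERG2) by 0.47 (adjusted p = 0.314). For Kcnh6 the slides disagreed, at -0.043 and 0.97. Differences in the family ran from -1.32 to 0.65, with 3 above 0 and 4 below. Arrays did not overlap in 4 (57.1%), against 26.3% of all genes.

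The calcium- and sodium-activated family held Kcnmb4, the member with the smallest p of all 74. Kcnmb4 encodes the beta 4 subunit of the large-conductance BK channel, known from brain, which slows its gating and makes it resistant to toxin block. A pair of 60-base probes on the minus strand reads it, at 115854977 to 115855036 of chromosome 10 and at 115910498 to 115910557 (mm9), with starts 55521 bases apart. Their first 30 bases are given because both rose.
Kcnmb4 brighter probe: ccctcaaagaagtcggttttctttggaaag
Kcnmb4 dimmer probe: ttacgagtacacggaagccgaagacaagag
The brighter probe read -3.30, -3.58 and -3.97 in controls (A, B, C) and -1.37, -0.90 and -1.30 in mutants (A, B, C), with the groups almost 2 log2 units apart at their nearest arrays. Kcnmb4 rose 5.37-fold (log2 difference 2.42, SE 0.21, limma adjusted p = 0.0139), by 2.20 and 2.41 within slides 1 and 2, and the slide block left the adjusted p at 0.0168. The dimmer probe read -5.86, -5.61 and -5.84 in controls and -4.24, -4.26 and -4.42 in mutants and rose by 1.46 (adjusted p = 0.0101 among all probes). The brighter probe was not called without control B (adjusted p = 0.0764), control C (0.0519) or mutant B (0.064).

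The pore that Kcnmb4 joins was not called. Kcnma1, the BK alpha subunit, read 0.51, 0.44 and 0.51 in controls and 0.23, 0.10 and 0.44 in mutants at its brightest probe. That is narrowly without overlap and a difference of -0.23 (SE 0.12, limma adjusted p = 0.346). Its dimmer tested probes differed by -0.37 and -0.39, also without overlap (limma adjusted p = 0.22 and 0.138 among all probes), and neither was called. The other beta subunits Kcnmb1 and Kcnmb2 differed by 0.32 and -0.26 (adjusted p = 0.363 and 0.424). Of the small- and intermediate-conductance channels that calcium opens through calmodulin, Kcnn3 (SK3) differed by -0.32 (adjusted p = 0.375) and Kcnn4 by 0.44 (adjusted p = 0.487), the latter with opposite signs in the slides, -0.21 and 1.07. Kcnt1, a sodium-activated channel, differed by 0.49 with non-overlapping arrays (adjusted p = 0.194). Apart from Kcnmb4 the differences of the 9 tested genes lay between -0.32 and 0.49.

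None of the 10 tested auxiliary genes was called. Kcnip4 encodes a calcium-binding protein that joins Kv4 channels, and it read -1.15, -0.78 and -1.39 in controls and -0.14, -0.066 and -0.40 in mutants. The groups were apart by 0.90 (SE 0.19, limma adjusted p = 0.071), within the slides by 0.91 and 0.94, and the difference passed under normexp correction, with a variance trend and in the authors' equalized values. Kcnab3, a cytoplasmic beta subunit of Kv1 channels, differed by 0.56 with non-overlapping arrays (adjusted p = 0.146). The 10 differences ran from -0.61 to 0.90, with 6 above 0. Kcnip4 and Kcnab3 were the 2 members without overlap (20%, against 26.3% of all genes).

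**Figure D3:**
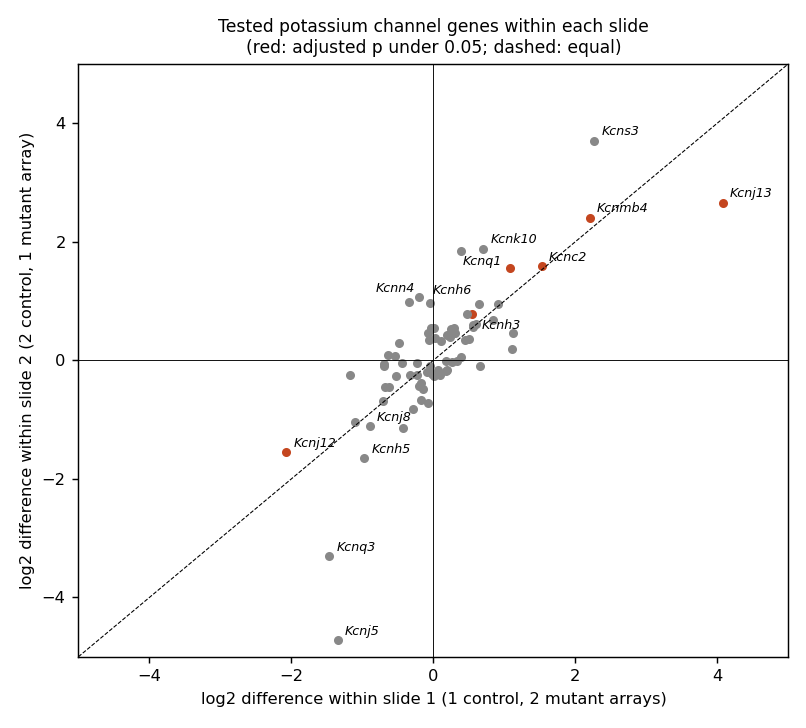
Log2 difference (mutant minus control) of the 74 tested members within slide 1 (x axis, 1 control and 2 mutant arrays) against slide 2 (y axis, 2 control and 1 mutant array), with called members in red. Of the 74 members 55 have the same sign in both slides, while Kcnh6 and Kcnn4 have opposite signs. For the 6 called members the same sign follows from groups without overlap.

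Several genes are read by more than 1 tested probe, which shows how far the choice of probe matters. As features of their own, 10 of the 99 member probes were called, 8 higher and 2 lower, against 2.75% of all probes. They belonged to 8 genes, the 6 above with Kcnf1 and Kcns3. Of 23 members with more than 1 tested probe, 5 had probes of opposite sign, namely Kcna5, Kcna6, Kcnd1, Kcnh8 and Kcnip3. In Kcna5 (Kv1.5) the brighter probe differed by 0.97, with controls at -2.72, -2.85 and -3.97 and mutants at -2.46, -2.34 and -1.83, and the dimmer by -0.14. In Kcna6 the brighter probe differed by -0.13 and the dimmer by 0.80. In Kcnd1 the values were -0.088 and 0.029, and in Kcnip3 0.45 and -0.18. The 3 Kcnh8 probes differed by 0.35, 0.082 and -0.41. None of these probes was called.

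**Figure D4:**
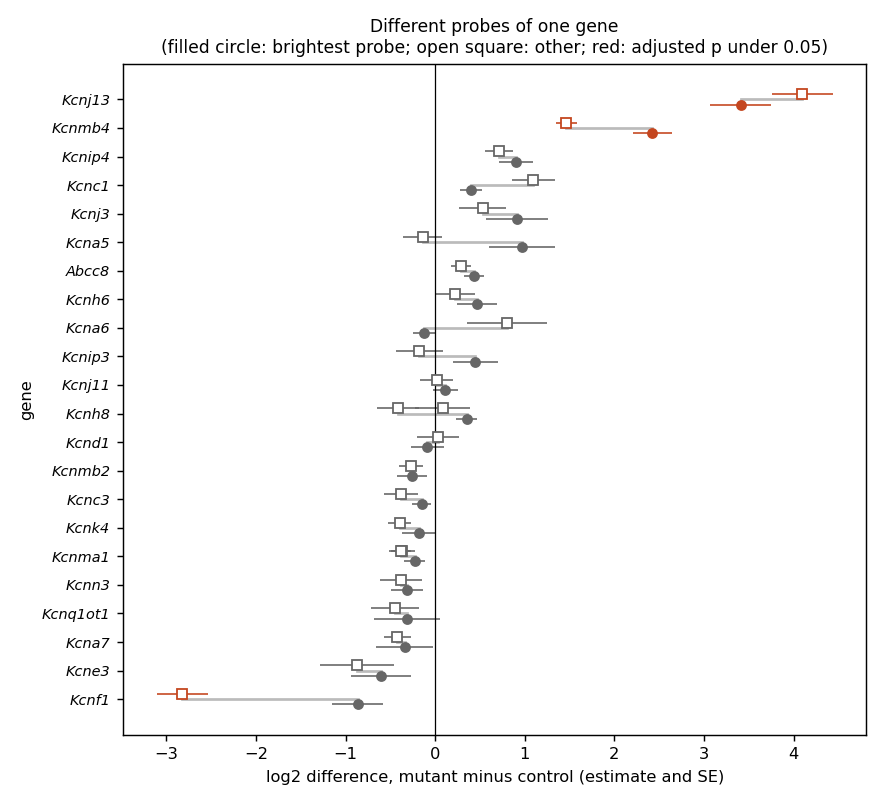
Log2 difference (mutant minus control) with its standard error for the tested probes of members that have more than 1, with the brightest probe as a filled circle, other probes as open squares and called probes in red. Both probes of Kcnj13 and of Kcnmb4 were called higher, and in Kcnf1 the dimmer probe alone was called.

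Detection set limits to the rest of the family. Of the 74 tested members 64 (86.5%) were above background on all 6 arrays, against 87% of all genes tested. A further 9 were above it on all control but not all mutant arrays, namely Kcnj8 and Kcnq3, Kcna2, Kcna3, Kcne4, Kcng3, Kcnj16, Kcnk5 and Kcnk9, and 1, Kcns3, the other way round. The share of all genes with either pattern was not counted. Over all probes, mutants A and B had the fewest above background, while mutant C lay within the range of the control arrays. The 23 untested members comprised 18 above background on no array, namely Kcna10, Kcne1, Kcne2, Kcng1, Kcng2, Kcnh7, Kcnj1, Kcnj2, Kcnj9, Kcnk7, Kcnk18, Kcnn1, Kcnq5, Kcns1, Kcns2, Kcnt2, Kcnv1 and Kcnv2. The other 5, Kcnab2, Kcng4, Kcnj14, Kcnk2 and Kcnmb3, were above it on 1 or 2 arrays. These 23 were left out of the comparison. Fitted without a filter on dim probes, Kcnj1 passed the threshold, although it was above background on no array.

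The sequence before the transcription start is shown for the called genes with an entry in the RefSeq promoter table (GRCm38.p6), which are Kcnj13, Kcnmb4, Kcnj12 and Kcnc2. Each is the 250 bases before a start, 5′ to 3′ on the gene's strand. They were searched on both strands for TTAATT, an AT-rich core of the kind that Nkx6 homeodomains bind, and for the shorter TTAAT within it, whose matches are in capitals (ATTAA is TTAAT on the other strand).
Kcnj13, chr1:87394730-87394979, minus strand: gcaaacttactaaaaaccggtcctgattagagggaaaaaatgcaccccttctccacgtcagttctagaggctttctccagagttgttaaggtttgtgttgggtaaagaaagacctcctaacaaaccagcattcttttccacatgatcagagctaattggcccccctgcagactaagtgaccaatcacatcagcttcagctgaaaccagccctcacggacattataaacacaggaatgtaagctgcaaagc
Kcnmb4, chr10:116473524-116473773, minus strand: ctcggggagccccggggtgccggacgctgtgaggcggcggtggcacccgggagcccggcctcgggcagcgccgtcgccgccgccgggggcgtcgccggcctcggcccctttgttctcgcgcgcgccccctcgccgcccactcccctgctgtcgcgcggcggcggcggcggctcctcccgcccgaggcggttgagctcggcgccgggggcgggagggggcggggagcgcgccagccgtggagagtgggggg
Kcnj12, chr11:61065554-61065803, plus strand: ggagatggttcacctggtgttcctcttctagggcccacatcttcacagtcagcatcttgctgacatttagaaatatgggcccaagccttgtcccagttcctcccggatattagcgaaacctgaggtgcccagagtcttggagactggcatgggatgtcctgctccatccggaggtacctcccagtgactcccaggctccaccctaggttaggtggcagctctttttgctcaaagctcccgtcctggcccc
Kcnc2, chr10:112269767-112270016, plus strand: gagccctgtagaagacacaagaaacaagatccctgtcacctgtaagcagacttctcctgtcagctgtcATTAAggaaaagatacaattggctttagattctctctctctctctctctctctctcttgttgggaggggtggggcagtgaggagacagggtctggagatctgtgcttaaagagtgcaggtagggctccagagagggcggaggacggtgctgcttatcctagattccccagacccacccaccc
Kcnmb4 has a G and C content of 83.6% in this window, against 45.2% for Kcnj13, 56.0% for Kcnj12 and 52.4% for Kcnc2. TTAATT occurred in 0 of the 7 windows of these 4 genes, in 5 of 72 windows (6.94%) of the 55 tested members with an entry, and in 10.4% of all 32851 windows of the table. TTAAT occurred in 2 of the 7 windows, both of Kcnc2 at alternative starts, where it began 182 and 81 bases before the start. Among the tested members 15 windows (20.8%) held TTAAT, and 24.9% of all windows did. Such matches are descriptions of the letters and not binding sites.

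Other genes of beta cell electrical activity were examined as a list of 44 names on the array (glucose entry, TRP, calcium, sodium and HCN channels, sodium pump subunits and partners of potassium channels). Of the 37 tested 5 were called, 3 higher and 2 lower, against 2.53% of all genes (1.41% higher, 1.12% lower). Arrays did not overlap in 16 of these 37, a larger share than the 26.3% of all genes, and the median log2 difference was 0.05. Among the partners of potassium channels Dpp6, a transmembrane subunit of Kv4 channels, averaged 0.074 ± 0.22 over the 3 controls and 1.71 ± 0.32 over the 3 mutants (both SD), without overlap, and rose 3.11-fold (limma adjusted p = 0.0249). Scn3a, a sodium channel pore of mouse islets, read 0.61, 0.76 and 0.67 in controls and 2.13, 1.99 and 1.96 in mutants, far apart beside the spread within groups, and rose 2.53-fold (adjusted p = 0.0101). Fxyd6, a regulator of the sodium pump, rose by 0.84 (adjusted p = 0.043). Trpm5, a calcium-activated cation channel, and Slc2a2, the GLUT2 glucose transporter, fell by 3.16 and 2.01 (adjusted p = 0.0317 and 0.0415). Cacna1c, a pore of the L-type calcium channel, read -4.24, -4.17 and -4.40 in controls and -5.02, -4.75 and -5.11 in mutants, without overlap, and missed the threshold (difference -0.69, adjusted p = 0.0625). With 1 array left out 0 to 4 of these genes were called, with 0 without control B, control C or mutant B, 1 without control A or mutant C, and 4 without mutant A.

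No call held in all 6 fits with 1 array left out. Kcnj12, Kcnj13 and Kcnmb4 were called in the fits without control A, mutant A or mutant C, Kcnq1 in the fit without control A, and Kcnc2 and Kcnh3 in none of the 6. No member was called without control B, control C or mutant B, where 13, 17 and 22 genes were called in all, and 25, 22 and 25 members had an unadjusted p under 0.05. The log2 differences themselves stayed within 3.09 to 4.19 for Kcnj13, 2.25 to 2.58 for Kcnmb4, -1.99 to -1.75 for Kcnj12, 1.30 to 1.67 for Kcnq1 and 0.58 to 0.69 for Kcnh3. For Kcnj13 the fit without control B took the other probe, which was then the brighter.

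**Figure D5:**
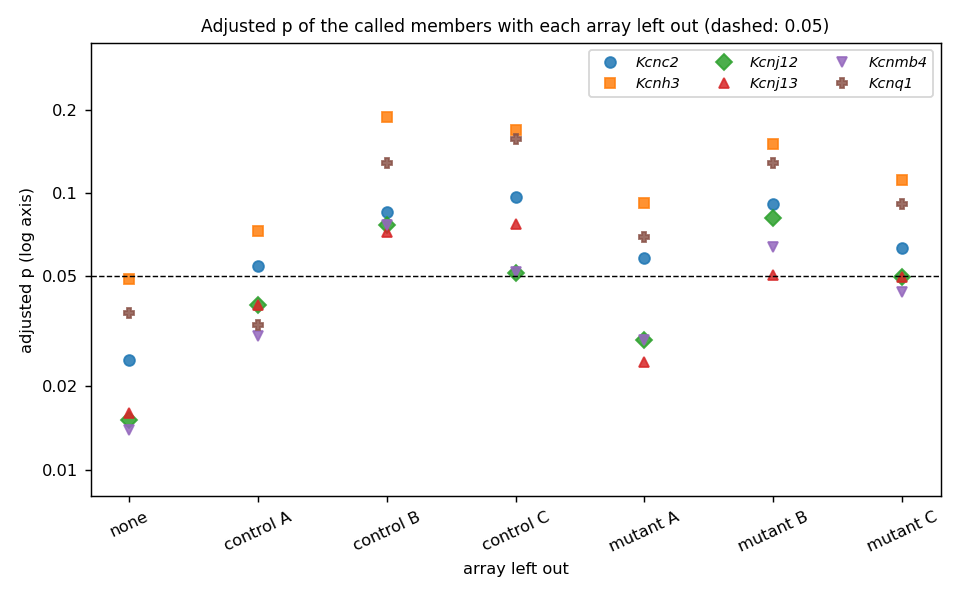
Adjusted p (y axis, log scale) of the 6 called members in the fit of all 6 arrays (none) and with each array left out (x axis), with the threshold of 0.05 dashed. All points lie above the line without control B, control C or mutant B, and 3 to 4 members lie below it without control A, mutant A or mutant C.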

How the data were processed

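The authors deposited 1 scanner file per array, made with Agilent Feature Extraction 10.7.3.1 per the submitters' processing notes. It holds spot intensities that, per the file headers, were background-corrected within each array, and other values, flags for outliers and for signal well above background. A further table deposited by the authors holds linear intensities (column medians 270.2, 266.95 and 268.3 in controls A to C, 272.8, 274.5 and 274.55 in mutants A to C). It ranked spots as the median spot signal did (Spearman correlation of at least 0.999), its scaling between arrays is not given in the sources used here, and it served as an alternative.

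Here, log2 intensities of 43020 non-control spots were scaled to each array's 75th percentile and averaged per probe. A probe counted as above background on an array if most of its spots were flagged so. The tested probe with the highest mean signal stood for a gene. The test was that of limma 3.58.1 under R 4.3.3 (two-sided, Benjamini-Hochberg), tested on simulated data. Folds compare geometric means. Slides were read from array barcodes. Probe positions were taken from the files (mm9), and with no mm9 annotation used here, exon and UTR positions are not given. Symbols matched RefSeq genes by accession for 71 of the 74 tested members, none with a changed symbol.

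Members, families and lists were chosen with earlier results of these data known. Members were named if they are known beta cell channels, were called, had 1 of the 2 smallest p-values of a family, stood nearest outside the threshold, lacked detection in 1 group, or had probes of opposite sign. Outside this rule, Kcnj3, Kcnj5, Kcnj6, Kcnj15, Kcnmb1 and Kcnmb2 are given with their values, and other members appear in the account of detection. Results of 2 members are not reported here. Settings tried are given in the closing section.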

Additional observations from a re-analysis of the deposited data

How the results depend on the processing

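Members called numbered 6 over all arrays, 8 with normexp correction (offset 50) and in the authors' equalized values, 6 with quantile scaling (Kcnh3 lost, Kcnq3 gained) and with outlying spots left out, 5 with median scaling, 5 without a filter on dim probes, 7 with a filter on all 6 arrays, 5 with slide as a block, alone or after quantile scaling (the latter chosen after seeing the data), 9 with a variance trend, 7 with the mean of a gene's probes, 10 of 99 with every probe as a feature, and 13 at an adjusted p under 0.1, where 1514 genes were called. With 1 array left out the members called ranged from 0 to 7, genes called from 13 to 396, electrical activity genes called from 0 to 4, and the members' median difference from 0.00072 to 0.11. That median was 0.27 without a filter, 0.21 with the filter on all 6 arrays, 0.029 over probes, and 0.0036 and 0.021 within slides 1 and 2. Its size thus did not hold. The smallest values were positive but lay below the spread of this median over the mutant arrays (SD 0.051), so its sign is not established. Electrical activity genes called were 3 with quantile scaling, 3 without a filter and 10 over probes. Samples of the same letter in both groups deviated from their group means with correlations of -0.23, -0.19 and -0.031. All of these pairs lay on different slides, where pairs of different letters were at -0.099 and -0.12. Pairs that shared a slide were at 0.084 to 0.23. These correlations thus cannot separate letter from slide or decide whether the letters are pairs. No label gives the letters as pairs, and they were not taken as such. With the letter as a replicate block limma called 0 genes, 0 members and 0 electrical activity genes, with 3163 genes and 22 members at an unadjusted p under 0.05. Kcnd1 changed sign with slide as a block (0.00086), Kcna6 with the mean of its probes (0.34), and over the fits with 1 array left out Kcnd1 ranged from -0.24 to 0.038 and Kcnq1ot1 from -0.66 to 0.085. None of these 3 was called. The cause of these changes was not tested. Signal over background limits Kcnj8, Kcnq3 and Kcns3 most, with -0.11, -0.57 and 1.86 under normexp.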
